A study of Mus musculus with 6 samples.

Results

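The epidermal differentiation complex is a cluster of genes on mouse chromosome 3 that keratinocytes switch on as they mature into the cornified layer. The genes considered here were the protein-coding genes on this chromosome whose symbol begins with S100a, Sprr, Lce or Flg, together with Ivl, Lor, Crnn, Hrnr, Rptn and Tchh. There were 58 of them, against 21000 protein-coding genes with a curated start site in the whole annotation. Flg has only predicted transcripts in that annotation, so that 57 of the 58 could be assigned a peak. They span 3.05 Mb, from S100a1 to S100a10 (GRCm38, the assembly of mm10, chr3:90511034-93564645), and 12 other protein-coding genes lie between them.

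The measurement was ChIP–seq for p65, the RelA subunit of NF-κB, in epidermal cells of C57BL/6J mice, and the question was where p65 sits in adult skin, in aged skin and in aged skin after blockade of IL-17A and IL-17F. Adult mice (17 to 25 weeks of age in the methods) received no treatment, aged/IgG control mice (below, aged/control) received intraperitoneal control IgG for 12 weeks from 73 weeks of age, and aged/anti-IL-17A/F mice (below, aged/blocked) received antibodies against both cytokines over the same time. Each of the 3 deposited lists holds the peaks of 1 pool of 4 mice, so there are no replicates, no test between conditions can be had, and all intervals below cover counting error only. The cells were separated from the dermis with trypsin, and the methods name no sort of them.

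During cornification, small proline-rich (SPRR) and late cornified envelope (LCE) proteins, involucrin and loricrin are cross-linked by transglutaminases into an envelope beneath the plasma membrane. Filaggrin, hornerin, repetin, trichohyalin and cornulin are large proteins that begin with an S100 domain and organise or join this envelope, while the S100A proteins themselves are small calcium-binding proteins, several of which act as alarmins or antimicrobial peptides. IL-17 receptors on keratinocytes signal to NF-κB, whose dimers bind a decameric κB site in DNA.

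The labels of the lists need care. All 8525 peak names in the list labelled adult begin with "Treated", as do all 6014 names in the aged/blocked list, whereas the 4169 names in the aged/control list begin with "Control". Groups below follow the GEO labels, and whether the adult list is what its label says cannot be settled from the names. Statements that involve adult or aged/blocked rest on this label. If both lists were exchanged, their counts and fold enrichments below would trade places, and those of aged/control would stay. Shares that depend on the roles of both lists would take new values, such as that of adult peaks absent from aged/control and found in aged/blocked. The lists hold no expression, so the epidermal origin could be checked only by peaks. The keratinocyte genes Krt1 and Trp63 had peaks in all 3 lists (Trp63 8, 5 and 7 in adult, aged/control and aged/blocked), and Krt5 and Krt14 had 1 peak each in adult and in aged/blocked and none in aged/control. Krt10 had 1 peak in adult, 1 in aged/control and none in aged/blocked. Of the genes of other cells, Ptprc, Cd3e and Col1a1 had none, and Pecam1, of endothelial cells, had 3 in each list.

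Peaks of the complex were those nearest to a start site of a member gene and all others between the outermost members. There were 23 in adult, 9 in aged/control and 19 in aged/blocked, all of them inside the interval. Merged by overlap, they formed 25 sites, of which 18 had a member gene as the nearest gene. The sites of the following sequences were chosen because they hold the NF-κB consensus within 100 bp of a summit or are the strongest of the sites present in the same lists. The site of Sprr1a was added after its values were seen. All are from the plus strand of GRCm38, 5′ to 3′. Capitals mark the NF-κB consensus in the first 9, which span chr3:90526988-90527058, chr3:90541927-90541996, chr3:90708670-90708739, chr3:90750301-90750370, chr3:92034109-92034178, chr3:92540617-92540686, chr3:93123651-93123720, chr3:93521851-93521920 and chr3:93547494-93547594 in this order.
S100a14: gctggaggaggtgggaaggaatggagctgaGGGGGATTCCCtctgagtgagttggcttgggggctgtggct
S100a16: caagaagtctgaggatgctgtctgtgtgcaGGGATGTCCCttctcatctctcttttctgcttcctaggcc
S100a9: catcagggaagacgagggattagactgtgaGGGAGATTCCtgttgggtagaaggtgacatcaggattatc
Pglyrp4 site 2: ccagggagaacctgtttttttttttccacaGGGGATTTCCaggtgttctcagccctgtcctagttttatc
Pglyrp3 site 2: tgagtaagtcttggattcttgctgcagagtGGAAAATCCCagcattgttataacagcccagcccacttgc
Ivl site 1: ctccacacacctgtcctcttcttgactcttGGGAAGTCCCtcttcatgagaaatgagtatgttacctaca
Crnn site 1: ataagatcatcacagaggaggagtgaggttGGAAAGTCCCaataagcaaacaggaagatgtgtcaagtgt
S100a11 site 3: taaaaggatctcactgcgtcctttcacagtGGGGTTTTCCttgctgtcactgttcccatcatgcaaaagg
S100a10: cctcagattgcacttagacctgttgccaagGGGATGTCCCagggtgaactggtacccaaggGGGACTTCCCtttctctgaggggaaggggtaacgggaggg

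Capitals in Sprr1a (chr3:92485961-92486057) and Crct1 (chr3:93012914-93012980) mark TGANTCA, the form searched here of the motif of AP-1, a dimer of Fos and Jun proteins. Any base may stand at N. Pglyrp4 site 3 (chr3:90751398-90751458), shown around its summit, holds neither motif there.
Sprr1a: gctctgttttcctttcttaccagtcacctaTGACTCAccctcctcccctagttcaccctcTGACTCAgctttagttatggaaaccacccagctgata
Crct1: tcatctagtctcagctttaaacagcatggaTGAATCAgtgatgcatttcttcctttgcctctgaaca
Pglyrp4 site 3: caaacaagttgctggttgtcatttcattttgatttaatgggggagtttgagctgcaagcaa

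In adult, 12 of the 57 member genes had a peak (21.1%, exact 95% interval 11.4 to 33.9), against 23.0% of all protein-coding genes. In aged/control 6 had one (10.5%, 3.96 to 21.5), against 12.9% of all genes, and in aged/blocked 11 had one (19.3%, 10.05 to 31.9), against 17.4%. Each share was near that of all genes, so the counts are no result about the complex. The 6 genes of the aged/control list, S100a3, S100a4, S100a11, Sprr1a, Ivl and Lce1l, had a peak in all 3 lists. Crnn, Lce6a, S100a9, S100a10, S100a14 and S100a16 had one in adult and not in aged/control, and 4 of these 6 (Crnn, Lce6a, S100a14 and S100a16) also had one in aged/blocked (66.7%, 22.3 to 95.7). Of all protein-coding genes with a peak in adult and not in aged/control, 40.1% had one in aged/blocked, a share inside this interval. No member gene had a peak in aged/control alone, and Rptn had one in aged/blocked alone. The counts moved with the length of the lists. With the 4169 strongest peaks of each list, 7 member genes had a peak in adult, 6 in aged/control and 6 in aged/blocked, against 13.1%, 12.9% and 13.0% of all protein-coding genes. The 6 genes were the same in both aged lists. Crnn, Lce6a, S100a14 and S100a16 thus had no peak in aged/blocked at this setting, nor with a −log10 q of at least 10, while Crnn and S100a14 kept theirs in adult at both.

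**Figure D1:**
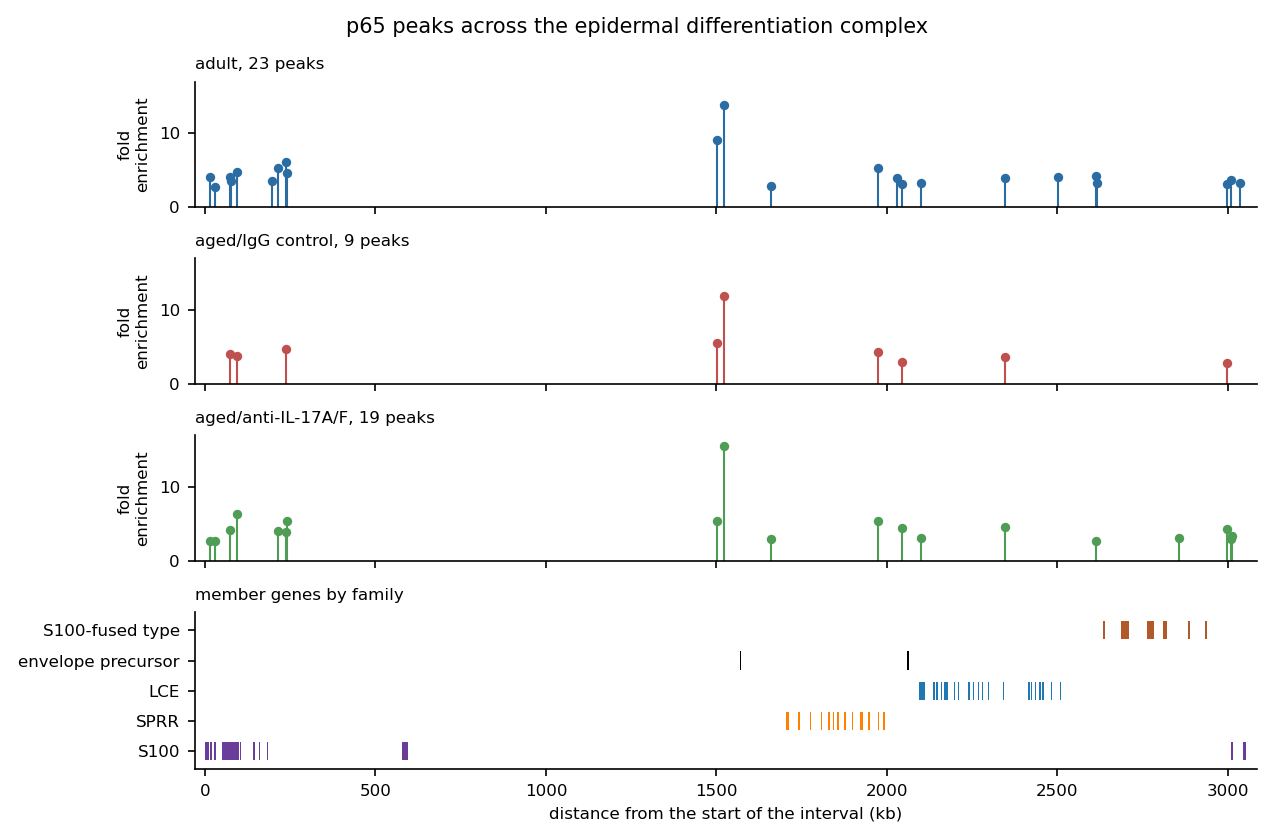
Fold enrichment of each p65 peak of the complex (y axis, ratio to the local background) against its distance in kb from the start of the interval (x axis), with 1 row per condition and the member genes below, 1 line per family. The 9 places with a peak in aged/control have one in both other rows, other places have one in 1 or 2 rows only, and the highest peak, in the middle of the interval, is the same site in all 3 lists; the SPRR and LCE clusters hold few peaks.

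By family, the S100A genes carried 10 of the 18 sites at members. Of the 15 S100A genes, 7 had a peak in adult (46.7%, 21.3 to 73.4), 3 in aged/control (20.0%, 4.33 to 48.1) and 5 in aged/blocked (33.3%, 11.8 to 61.6). Of the 14 SPRR genes, 1 had a peak, in all 3 lists. Of the 21 LCE genes, 2 had one in adult, 1 in aged/control and 2 in aged/blocked. The S100-fused genes other than Flg gave 1, 0 and 2 of 5. Of both envelope precursors, Ivl had a peak in each list and Lor in none. The exact intervals of every family held the shares of all protein-coding genes, 23.0%, 12.9% and 17.4%, so these counts set no family apart. In all, 44 members had no peak in any list: 8 S100A, 13 SPRR, 19 LCE and 3 S100-fused genes, and Lor.

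S100a4 encodes a calcium-binding regulator of cell motility, and its site (chr3:90604245-90604818) lay in its intron, 762 bp downstream of a start site. Fold enrichment, the ratio of fragments in the peak to the local background, was 4.70 in adult, 3.81 in aged/control and 6.40 in aged/blocked. Their percentiles within their own lists were 72.8, 50.2 and 86.8, so the site was lowest in aged/control on both scales.

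S100a3 encodes an S100 protein that is abundant in the hair cuticle, and its intronic site 1 (chr3:90585430-90586043) hardly varied. Its fold enrichment was 4.09 in adult, 4.06 in aged/control and 4.11 in aged/blocked. A further site in the same gene (chr3:90586899-90587351), 173 bp from a start site, was found in adult only, at 3.49, with the nearest peak of aged/control 1011 bp away.

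S100a11, whose product is a component of the cornified envelope, had 3 sites. The one 13319 bp upstream (chr3:93506972-93507390) was in all lists, at 3.12 in adult, 2.89 in aged/control and 4.31 in aged/blocked, with percentiles of 30.8, 13.6 and 65.2. Site 2 (chr3:93520613-93521192), 431 bp into the gene, had 3.59 in adult and 3.0 in aged/blocked and no peak in aged/control. Site 3 (chr3:93521699-93522051), 1379 bp into the gene, was in aged/blocked only, at 3.30, and the nearest adult peak ended 506 bp from it. The κB sequence of site 3 printed above lies 2 bp from its summit.

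The other S100A genes with a peak had none in aged/control. S100a14, an epithelial S100 gene, had a wide adult peak over its start site (chr3:90526017-90527447, 4.09), inside which the aged/blocked peak had 2.65. Their summits lay 716 bp apart, and the κB sequence printed for S100a14 is within 100 bp of the aged/blocked summit and not of the adult one. S100a16, its neighbour, had 2.66 in adult and 2.70 in aged/blocked in its intron (chr3:90541535-90542014), with percentiles of 11.04 and 11.05, and so among the weakest peaks of their lists. S100a9, a subunit of the alarmin calprotectin, had an adult peak 12972 bp upstream (chr3:90708530-90708855) at 3.45, and S100a10, a partner of annexin A2, one 7687 bp upstream (chr3:93547242-93547618) at 3.21. Its window holds 2 κB sequences. Neither of these had a peak in an aged list.

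S100a8, the other subunit of calprotectin, had no peak in any list. The nearest edge of a peak lay 39459 bp from its start site in adult, 64354 bp in aged/control and 56550 bp in aged/blocked. S100a7a, a mouse relative of psoriasin, was also without a peak, at 49518, 49585 and 49484 bp.

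Sprr1a encodes a small proline-rich envelope precursor. Its site, 338 bp upstream of the start site (chr3:92485821-92486685), was the only one in the SPRR cluster. Fold enrichment was 5.21 in adult, 4.36 in aged/control and 5.35 in aged/blocked, with percentiles of 78.7, 64.0 and 78.8. The summits of the 3 lists were within 7 bp of each other, and the pair of AP-1 sequences printed above lies 39 and 69 bp from the strongest summit, on the side of the start site. The other 13 SPRR genes, among them the 10 Sprr2 genes, had no peak. A stretch of 316 kb with Sprr1b, Sprr3 and the Sprr2 genes held none in any list.

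Near-identical genes limit what short reads can show here. Of all 50-base words of Sprr2a1, Sprr2a2 and Sprr2a3, 97.1%, 97.3% and 76.7% occur more than once in the interval, and reads of that length cannot be placed uniquely in them. For Flg2, Flg, Hrnr and S100a7l2 the share was 48.7, 47.5, 43.6 and 43.6%. The other 7 Sprr2 genes were lower, at most 11.4% for Sprr2b, and had no peak either. Members with a peak reached at most 5.44%, and all 25 sites were at 0%. The part of repeated sequence in the absence of peaks was not tested.

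Ivl encodes involucrin, an early scaffold of the envelope. Its site 2 (chr3:92554330-92554749), 19195 bp downstream of the start site, had a fold enrichment of 3.07 in adult, 2.99 in aged/control and 4.50 in aged/blocked. The percentiles were 29.8, 17.6 and 68.4, so the peak was in the lower part of the first 2 lists and in the upper part of the last. Site 1 (chr3:92540328-92540794), 33174 bp away, was in adult only, at 3.89. Lor, which encodes loricrin, the main protein of the mature envelope, had no site of its own, and its start site lay 48046 bp from the nearest adult peak.

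Lce1l was the only one of the Lce1 genes with a peak. The site, 4602 bp upstream (chr3:92855684-92856119), had 3.91 in adult, 3.60 in aged/control and 4.53 in aged/blocked. Lce6a had 3.30 in adult and 3.09 in aged/blocked at a site (chr3:92609761-92610157) 11664 bp downstream of its start site. That site lies within Lce6a itself, with its summit outside exons, and also in an intron of the noncoding gene Gm35639. LCE genes otherwise stood in stretches without a peak in any list: 246 kb with the Lce1a1 to Lce1l genes, 157 kb with the 6 Lce3 genes and 110 kb with Lce1m.

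Of the S100-fused genes, Crnn, which encodes cornulin, had a site 21114 bp upstream (chr3:93123461-93123888) with 4.15 in adult and 2.72 in aged/blocked. The percentile was 64.3 in adult and 11.8 in aged/blocked. A further site, 16549 bp upstream (chr3:93127935-93128544), was in adult only, at 3.26. Both lie in the noncoding gene Gm35785, and with predicted transcripts included in the annotation the start site of Crnn was no longer the nearest to either. Rptn, which encodes repetin, had a single site 26282 bp upstream (chr3:93367253-93367580), in aged/blocked only, at 3.10. No peak lay in the 239 kb that hold the Flg2, Flg and Hrnr genes, nor within 64642 bp of the start site of Tchh.

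**Figure D2:**
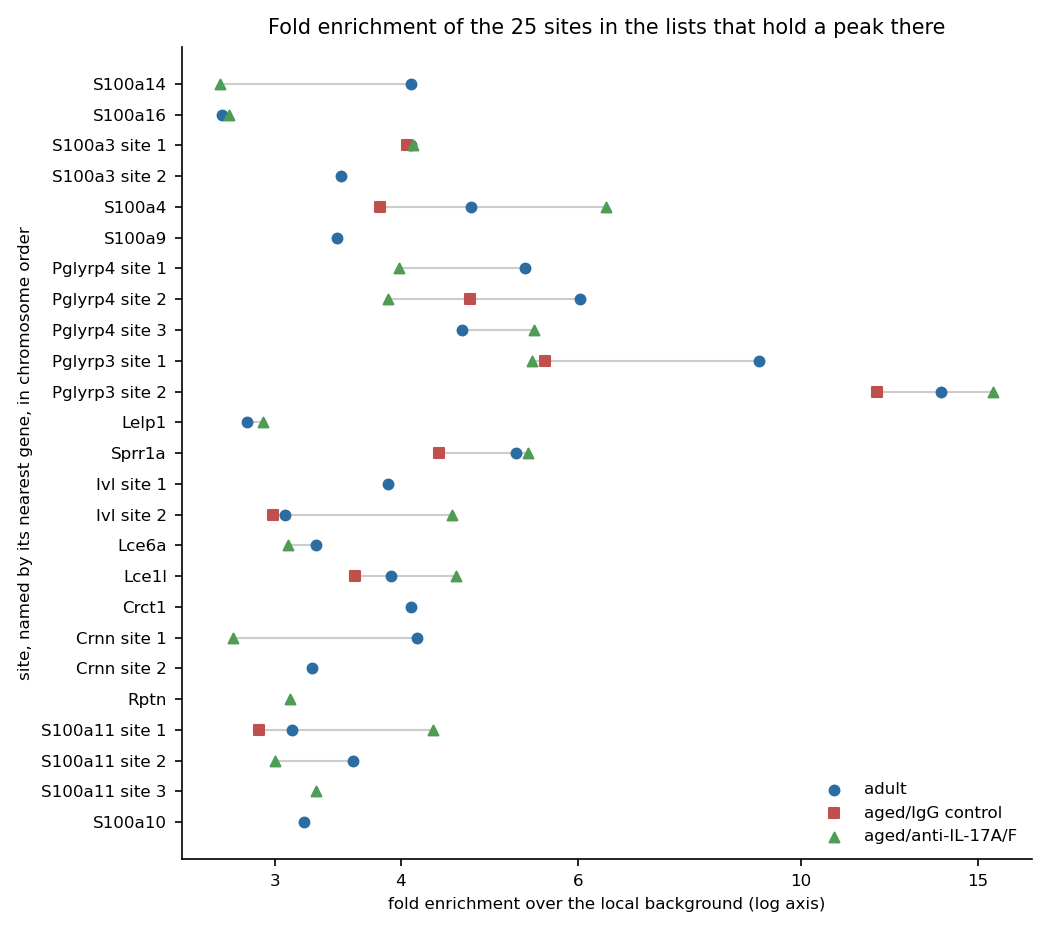
Fold enrichment (x axis, ratio to the local background, log axis) at each of the 25 sites (y axis, named by the nearest gene), with 1 mark per list that holds a peak there. At all 9 sites with a square, for aged/control, the circle for adult is further to the right, although at S100a3 site 1 the values are 4.06 and 4.09; the highest values belong to Pglyrp3 site 2.

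The strongest site of the complex was not nearest to a member gene. Pglyrp3 encodes a peptidoglycan recognition protein of the epithelial defence against bacteria, and its site 2 (chr3:92033791-92035096) lay 19779 bp from its start site and 48780 bp from that of Lor. Fold enrichment was 13.8 in adult, 11.9 in aged/control and 15.5 in aged/blocked. The ranks were 105, 52 and 21 in lists of unequal length, and the percentiles 98.8, 98.8 and 99.7. Site 1 (chr3:92012125-92012677), 2179 bp upstream of Pglyrp3, had 9.08 in adult, 5.56 in aged/control and 5.40 in aged/blocked. The related gene Pglyrp4 had 3 sites, of which site 2 (chr3:90750073-90750579) was in all lists, at 6.03, 4.68 and 3.89. Sites 1 and 3 (chr3:90725597-90726084 and chr3:90751201-90751674) had 5.31 and 4.60 in adult and 3.98 and 5.43 in aged/blocked, with no peak in aged/control. Lelp1 had 2.81 in adult and 2.92 in aged/blocked, and Crct1 had 4.09 in adult only. In all, 4 of the 12 other genes in the interval had a peak in adult (33.3%, 9.92 to 65.1), 2 in aged/control (16.7%, 2.09 to 48.4) and 3 in aged/blocked (25%, 5.49 to 57.2), and these intervals too hold the shares of all genes.

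For genes of cornification elsewhere in the genome, 18 of 28 had a peak in adult (64.3%, 44.1 to 81.4), 12 in aged/control (42.9%, 24.5 to 62.8) and 15 in aged/blocked (53.6%, 33.9 to 72.5). The shares of all protein-coding genes, 23.0%, 12.9% and 17.4%, lie below these intervals. The list was chosen with earlier results known, and its difference from the complex was not tested. Of the 28 genes, 10 had a peak in all 3 lists, among them the transglutaminase gene Tgm1, and 10 in none. A peak in adult and aged/blocked and not in aged/control was found for 5, which were Tgm3, a transglutaminase gene, the plakin genes Evpl, Ppl and Dsp, and Dsc1, which encodes a desmosomal cadherin. They are 5 of the 6 list genes with a peak in adult and not in aged/control (83.3%, 35.9 to 99.6), and the 40.1% of all protein-coding genes lies within this interval. The keratin genes Krt2 and Krt10 had a peak in adult and aged/control and not in aged/blocked, and Cdsn, which encodes corneodesmosin, had one in adult only.

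Peak density was 7.53 per Mb of the interval in adult, 2.95 in aged/control and 6.22 in aged/blocked, against 3.13, 1.53 and 2.21 per Mb of the genome. The interval is also dense in genes, with 58 members and 12 other protein-coding genes in 3.05 Mb, against 21000 in the 2726 Mb of the genome. Peak densities were not adjusted for this. The longest stretch without a peak in any list, 1260 kb, held S100a7l2 as its only member. The median fold enrichment of the peaks was 3.91, 4.06 and 3.98, near the 3.60, 3.80 and 3.69 of the whole lists. Peaks within 1 kb of a start site numbered 6 of 23 in adult (26.1%), 2 of 9 in aged/control (22.2%) and 6 of 19 in aged/blocked (31.6%), against 36.9%, 33.1% and 33.7% of all peaks. By the position of the strongest summit, 16 of the 25 sites were intergenic, 8 intronic and 1 in an exon of a noncoding gene.

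The 9 sites of the aged/control list were all found in both other lists, 8 sites were in adult and aged/blocked, 6 in adult only and 2 in aged/blocked only. Of the adult peaks, 9 of 23 overlapped a peak of aged/control (39.1%, 19.7 to 61.5), against 45.5% of all adult peaks, and 17 of 23 one of aged/blocked (73.9%, 51.6 to 89.8), against 60.4%. Of the aged/control peaks, 9 of 9 were in adult, against 93.3% of the list, and 9 of 9 in aged/blocked, against 86.6%. Of the aged/blocked peaks, 17 of 19 were in adult (89.5%), against 85.6%, and 9 of 19 in aged/control (47.4%), against 59.9%. In each case the interval held the share of the whole list.

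Of the 14 adult peaks without a partner in aged/control, 8 overlapped a peak of aged/blocked (57.1%, 28.9 to 82.3). Over all adult peaks this share was 35.4%, and over peaks of the same strength, weighted by decile of fold enrichment, it was 44.8%. Both lie within the interval. The 8 peaks are those at S100a14, S100a16, Lce6a, Crnn site 1, S100a11 site 2, Lelp1 and Pglyrp4 sites 1 and 3. With the adult and aged/blocked lists exchanged, the same 8 peaks are 8 of 10 (80.0%). With the 4169 strongest peaks of each list the share was 33.3% of 6. At neither of these settings was the share over all peaks taken, so the 35.4% and 44.8% above are no background for them.

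Presence followed strength in the whole adult list, of which 13.4% in the lowest and 100% in the highest decile of fold enrichment were in aged/control. In the complex, the 9 adult peaks found in all 3 lists had a median fold enrichment of 4.70 and a median percentile of 72.8, and the other 14 had 3.54 and 48.0. The peaks that were missing from aged/control thus included many of middling or low strength. How many would appear with more reads was not tested.

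**Figure D3:**
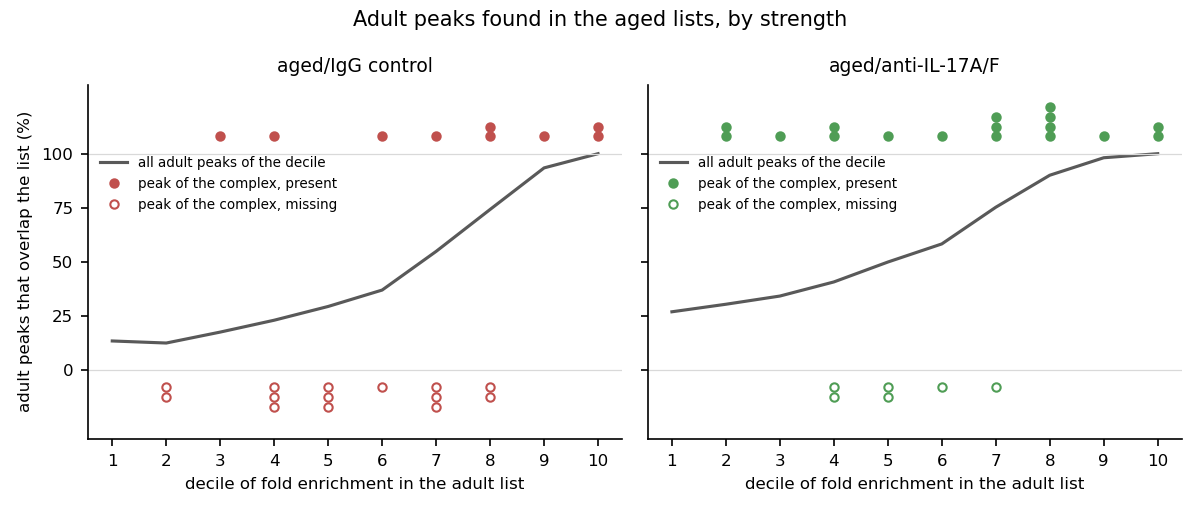
Share of all adult peaks that overlap a peak of aged/control (left) or aged/blocked (right) by decile of fold enrichment in adult (x axis; y axis in percent), with the 23 adult peaks of the complex as filled circles above (found) or open circles below (missing). On the left the line stands at 13.4% in decile 1 and 12.4% in decile 2 and then climbs to 100%, on the right it climbs from 26.9% to 100%, and all open circles lie in deciles 2 to 8 on the left and 4 to 7 on the right.

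At the sites shared by adult and aged/control, fold enrichment was lower in aged/control at 9 of 9, with a median ratio of 0.864 and a range of 0.613 to 0.993. Of all peaks shared by these lists, 21.5% were higher in aged/control, with a median ratio of 0.813, so the lower values extended over the genome. From aged/control to aged/blocked, 7 of 9 sites were higher, with a median ratio of 1.26, against 66.6% of all shared peaks and a median ratio of 1.10. From adult to aged/blocked, 10 of 17 were higher, with a median ratio of 1.02, against 34.5% and 0.902. Rises and falls lay side by side: Pglyrp3 site 1, Pglyrp4 site 2 and S100a14 stood lower in aged/blocked than in adult, and S100a4, Ivl site 2 and S100a11 site 1 stood higher.

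The NF-κB consensus, on either strand and no further than 100 bp from the summit, was found in 6 of 23 adult peaks of the complex (26.1%, 10.2 to 48.4), 2 of 9 of aged/control (22.2%, 2.81 to 60.0) and 6 of 19 of aged/blocked (31.6%, 12.6 to 56.6). Over all peaks the shares were 28.5%, 37.8% and 34.9%, within these intervals, and in windows 2000 bp from the summits they were 2.18%, 1.95% and 2.26%. The AP-1 motif TGANTCA was found in 7 of 23 (30.4%, 13.2 to 52.9), 4 of 9 (44.4%, 13.7 to 78.8) and 4 of 19 (21.1%, 6.05 to 45.6) peaks of the complex, against 13.2%, 14.1% and 14.4% of all peaks, which also lie within the intervals. The grainyhead motif AACCNGTT, bound by a family of epithelial transcription factors, was in 4 of 23 (17.4%, 4.95 to 38.8), 2 of 9 (22.2%, 2.81 to 60.0) and 2 of 19 (10.5%, 1.30 to 33.1), against 4.30%, 4.94% and 4.11% of all peaks. The adult interval lies above the share of its list, the only one of the 12 shares of motifs to do so, and no adjustment for their number was made. The C/EBP motif TTGCNNAA was in 1, 0 and 2, against 9.81%, 9.57% and 9.63%. The peaks overlap between lists, so these shares are not separate observations.

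**Figure D4:**
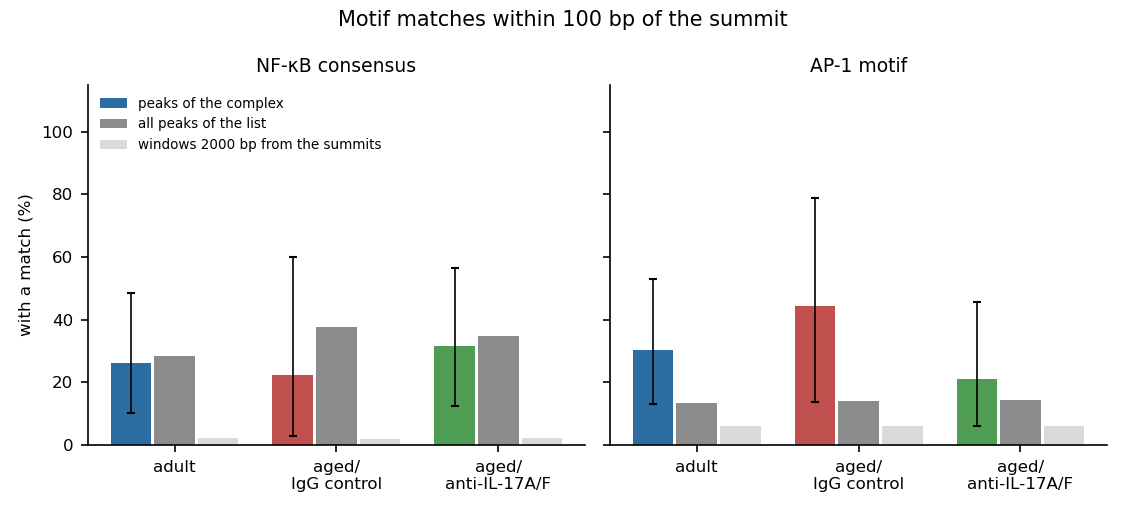
Percent of peaks with the NF-κB consensus (left) or the AP-1 motif (right) within 100 bp of the summit, for the peaks of the complex (coloured bars with exact 95% binomial intervals), all peaks of each list (dark grey) and windows 2000 bp from the summits (light grey). For the NF-κB consensus the coloured bars, 22.2% to 31.6%, are below those of the whole lists, inside wide intervals; for AP-1 they are above them, 21.1% to 44.4% against 13.2% to 14.4%, and the intervals again hold the values of the whole lists.

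Site by site, 9 of the 25 held the NF-κB consensus, 7 the AP-1 motif and none held both. The AP-1 match read only TGAATCA at S100a3 site 1, Lelp1 and Crct1, and TGACTCA or its reverse complement TGAGTCA at the others. Among the 6 sites at member genes that were in all 3 lists, 4 held the AP-1 motif (S100a3 site 1, Sprr1a, Ivl site 2 and Lce1l) and 0 the NF-κB consensus. Among the other 12 sites at member genes, the 5 in adult only held the consensus in 3, the 5 in adult and aged/blocked in 3 (at S100a14 and S100a16 near the aged/blocked summit only, at Crnn site 1 near both), and the 2 in aged/blocked only in 1. The AP-1 motif was in 1 of these 12, S100a3 site 2. Over all 25 sites the contrast was smaller: of the 9 in all lists, 2 held the consensus and 4 the AP-1 motif, and of the other 16, 7 held the consensus and 3 the AP-1 motif. The sites that make this difference lie at genes outside the families, Pglyrp3 site 2 and Pglyrp4 site 2 with the consensus, in all lists, and Lelp1 and Crct1 with the AP-1 motif, neither of them in aged/control. These counts take a match near the summit of any list. By adult summits alone, the consensus was in 2 of the 9 adult peaks of the complex found in all 3 lists and in 4 of the other 14. The AP-1 motif was in 4 of the 9 and in 3 of the 14. In the whole adult list, also by adult summits, the consensus was more frequent in the peaks of all 3 lists. It was in 42.5% of these 3502 peaks and in 18.7% of the other 5023, and the AP-1 motif was in 14.4% and 12.4%. The sites of the complex are few and were grouped after their values were seen, and no test was made. The consensus lies 22 bp from the strongest summit at Pglyrp3 site 2, 1 bp from it at Pglyrp4 site 2 and 8 bp at Crnn site 1.

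In the promoters of the members, from 250 bases before to 50 after a start site (54 members with 58 promoters in the RefSeq table), the NF-κB consensus was in 0, against 4.51% of all 32851 promoters. The AP-1 motif was in 18 of 58 (31.0%), against 7.81%, in SPRR genes (Sprr1a, Sprr1b and 7 Sprr2 genes), both Ivl and Lor, Flg, Flg2, Rptn and Crnn, and S100a11, S100a16 and S100a7l2. Of these 18 genes Sprr1a alone had a peak within 1 kb of its start site in all 3 lists. Many of these genes belong to the same families, and the likeness of their promoters was not measured, so the promoters cannot be counted as independent.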

How the data were processed

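p65 ChIP–seq and input libraries were made from epidermal cells, giving 3 ChIP and 3 input samples. The inputs were not analysed here, and the methods do not say if peaks were called against them. According to the methods, the authors used Trimmomatic 0.36 to trim single-end reads of 50 bases, the Burrows–Wheeler aligner 0.7.12 to place them on mm10, SAMtools 1.5 to merge 4 mice per condition and remove duplicates, and, after downsampling the pools to equal read numbers, MACS2 for peaks (q of 0.01, fragment length 300 bp). A row of the deposited lists gives a peak's position, score, summit, fold enrichment (ratio over local background) and −log10 p-value and q-value. Pooling removes the variation between mice, and a peak near the threshold can drop from a list with little change in signal. Read depth per peak is unknown.

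Each peak was assigned to the nearest start site, from its middle, among curated RefSeq transcripts of GRCm38.p6, and peaks whose nearest gene was not protein-coding were not counted for genes. Peaks overlapping by at least 1 bp were merged to sites. Percentiles and deciles were taken from the fold enrichment within each list, and shares have exact Clopper-Pearson 95% intervals. Genome sequence and promoters came from RefSeq (GRCm38). Tools were numpy 2.4.6, scipy 1.17.1, pandas 2.3.3 and matplotlib 3.10.9 under Python 3.11.15. On simulated data, the overlap step gave the count of bedtools 2.31.1 (5010 of 8525 shifted adult peaks), and 1000 of 1000 nearest start sites and 200 of 200 planted motifs were recovered.

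The member genes, gene lists and motifs were chosen with earlier results of these data known. All member genes with a peak are named. Alternatives were stricter q-values, equal numbers of peaks, other annotation rules, another overlap and other motif windows. The exchange of the adult and aged/blocked lists was added after the data were seen.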

Additional observations from a re-analysis of the deposited data

How the results depend on the processing

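Of 51 alternative values for 13 counts and shares, 44 stayed within 1.5 times the count or within the exact interval of the share. Some of the 44 could not move: equal lists leave aged/control as it is, and so does the exchange of both other lists. The exchange only swaps the counts of adult and aged/blocked, and the intervals of the shares are wide, so the tally is no measure of stability. With the 4169 strongest peaks of each list, member genes with a peak fell from 12 to 7 in adult and from 11 to 6 in aged/blocked, and peaks of the complex from 23 to 13 and from 19 to 12, beside the 6 genes and 9 peaks of aged/control. With a −log10 q of at least 10, adult had 10 member genes, aged/control 4 and aged/blocked 6, against 16.7%, 9.63% and 12.9% of all protein-coding genes. Peaks of the complex then numbered 19, 7 and 11. With peaks within 10000 bp of a start site only, member genes numbered 8, 4 and 7, and the share of all genes was not taken. Lists of equal length thus left little of the excess of adult genes over aged/control and none of that of aged/blocked genes, while these other settings kept both. Exchanging the adult and aged/blocked lists gave 11 and 12 member genes. No library could be left out and no paired analysis was possible because each condition is a single pool of mice. Depth per peak is unknown, so a missing peak shows only that the threshold was not passed.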
